A study of Mus musculus with 2 samples.

Results

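The myeloid C-type lectin receptors are a group of 10 listed genes, Mrc1, Clec10a, Clec7a, Clec4n, Clec4d, Clec4e, Clec5a, Clec12a, Clec4a2 and Clec4a3, whose signals were compared between macrophages with and without c-Maf. The genes were chosen by name, and every probe set annotated to 1 of them alone was taken, without regard to its signal. This gave 12 of the 45101 probe sets, covering 9 of the 10 genes; Clec12a has no probe set of its own in the annotation used here. All 9 genes were measured, which means at or above a floor on at least 1 array, and 7 were above it on both. Over the whole series 13290 genes were measured.

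Cells positive for both Mac-1 (the integrin chain CD11b) and F4/80 were sorted from the livers of mouse embryos on a C57BL/6J background at E15.5, a day count of embryonic development, and their total RNA was hybridised to Affymetrix arrays, 1 array for c-Maf+/+ (wild type) and 1 for c-Maf-/- (c-Maf KO) embryos. The labels give the genotype of the whole embryo, name no treatment, and do not say how many embryos went into each sort. The design text asks which genes are lower in macrophages that lack c-Maf, a basic leucine zipper transcription factor encoded by Maf. With 1 array per genotype there is no test, no replicate error and no p-value for any comparison, and each value describes these 2 arrays.

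C-type lectin receptors are membrane proteins whose extracellular lectin fold binds sugars, lipids or proteins of microbes and of damaged cells. Mrc1 and Clec10a are mainly endocytic. Clec7a signals through a tyrosine motif in its own tail, while Clec4n, Clec4d and Clec4e depend on the Fc receptor gamma chain (Fcer1g) and Clec5a on the adaptors DAP12 (Tyrobp) and DAP10 (Hcst). These activating receptors converge on the kinase Syk and the CARD9, BCL10 and MALT1 complex. Clec4a2 and Clec12a instead carry inhibitory motifs that recruit phosphatases. Monocytes, neutrophils and dendritic cells also make many of these receptors.

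The genes cluster in the genome. By RefSeq annotation, Clec4a3, Clec4a2, Clec4n, Clec4d and Clec4e follow one another in this order within the Dectin-2 cluster of chromosome 6, with further lectin genes between some of them, and Clec12a and Clec7a lie in the Dectin-1 cluster of the same chromosome. Clec5a is also on chromosome 6, Mrc1 on chromosome 2 and Clec10a on chromosome 11. Because the study removed a DNA-binding factor, the RefSeq promoter windows of the members (GRCm38.p6, from 250 bases before to 50 after a start) were searched for the Maf half-site TGCTGA on both strands. Of the 10 listed genes 8 had a window, with 10 windows between them. The half-site was held by 2 of these 10 windows, those of Clec5a and Clec4a2, and by 19.5% of all 32851 windows. The bases upstream of the start are shown for these 2 genes, and for Mrc1, lower in knockout, and Clec4d, higher in knockout, neither of which has the half-site in its window. Each is written 5′ to 3′ along the gene, with the half-site in capitals.
Clec5a, chr6:40585806-40586055, minus strand: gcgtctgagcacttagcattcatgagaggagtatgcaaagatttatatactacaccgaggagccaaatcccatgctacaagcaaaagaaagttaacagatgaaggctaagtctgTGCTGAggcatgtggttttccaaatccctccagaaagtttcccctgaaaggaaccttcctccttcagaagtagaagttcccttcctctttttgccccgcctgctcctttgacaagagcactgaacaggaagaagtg
Clec4a2, chr6:123122440-123122689, plus strand: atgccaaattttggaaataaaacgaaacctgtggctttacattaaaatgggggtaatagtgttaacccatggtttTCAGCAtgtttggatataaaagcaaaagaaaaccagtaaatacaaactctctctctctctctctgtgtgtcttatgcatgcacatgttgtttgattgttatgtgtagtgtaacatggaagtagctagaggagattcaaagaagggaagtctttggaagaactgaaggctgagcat
Mrc1, chr2:14229164-14229413, plus strand: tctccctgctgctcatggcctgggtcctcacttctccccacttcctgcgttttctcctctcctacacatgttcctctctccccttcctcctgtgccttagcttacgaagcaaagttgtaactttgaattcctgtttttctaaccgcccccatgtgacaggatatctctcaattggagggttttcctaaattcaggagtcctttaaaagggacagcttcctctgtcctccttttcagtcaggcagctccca
Clec4d, chr6:123261857-123262106, plus strand: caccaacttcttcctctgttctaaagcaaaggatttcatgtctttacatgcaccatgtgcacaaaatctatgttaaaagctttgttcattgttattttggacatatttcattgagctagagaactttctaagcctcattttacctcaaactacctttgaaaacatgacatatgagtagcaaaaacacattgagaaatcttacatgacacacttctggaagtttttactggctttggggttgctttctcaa
The half-site of Clec5a begins 136 bases upstream of the start, and that of Clec4a2, on the opposite strand, 175 bases upstream. The ETS core GGAAGT, the letters that PU.1 and its relatives read, was found on either strand in 3 of the 10 member windows. These were the windows of Mrc1, Clec4a2 and Clec4d, against 23.8% of all windows. The C/EBP motif TTGCNNAA was found in 2 of the 10, those of Clec4e and Clec12a, against 10.8% of all windows. These letter matches are a description of the windows and show no binding.

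The knockout array was dimmer as deposited. All probe sets together had a median signal of 4.73 on the wild-type and 2.98 on the knockout array, and the median deposited log2 ratio of knockout over wild type was -0.79 over measured genes. Each difference is therefore given as a deposited ratio and as a level-adjusted ratio, taken after quantile normalization, which gives both arrays the same distribution of signals; its median over genes was 0.01. Values below the median of all signals, 3.70 as deposited and 3.75 level-adjusted, were raised to that floor, and a difference with 1 side below it is a bound. As a yardstick, level-adjusted log2 ratios of probe sets of the same gene had an SD of 0.69 (1592 genes); this holds no variation from embryo, sort or array. The brightest Maf probe set read 47.6 in wild type and 0.219 in knockout, and the second brightest 21.0 and 0.143; the other 4 were close to the floor or below it in wild type. The position of these probes relative to the deletion is not known here. The sorted macrophages carried Adgre1, the F4/80 gene, at 71.4 and 48.1 and Csf1r at 625 and 248, while Itgam, the Mac-1 gene, was close to the floor at 5.76 and 3.94.

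The members divided by direction. On the level-adjusted scale Clec4d and Clec4a3 were at least 2-fold higher on the knockout array, and 0 members were at least 2-fold lower, with Clec10a known by a bound only. In the background 8.34% of measured genes passed 2-fold upward and 9.05% downward. As deposited, Mrc1, Clec5a, Clec4a2 and Clec7a were at least 2-fold lower, against 39.8% of all genes, and Clec4d at least 2-fold higher, against 1.19%. With the array medians made equal, Clec4a2 and Mrc1 were at least 2-fold lower (16.3% of all genes) and Clec4d and Clec4a3 higher (4.74%). The level-adjusted ratio was below 0 for 5 members and above 0 for 4. Level adjustment put the median gene near 0, so a near-even split by sign does not set the members apart. As deposited, where most genes were lower, 7 members were below 0 and 2 above. The member median was -0.20 level-adjusted and -0.96 as deposited, beside 0.01 and -0.79 over all genes. Fewer cells of a type and less RNA per cell cannot be told apart in these sorted populations.

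**Figure D1:**
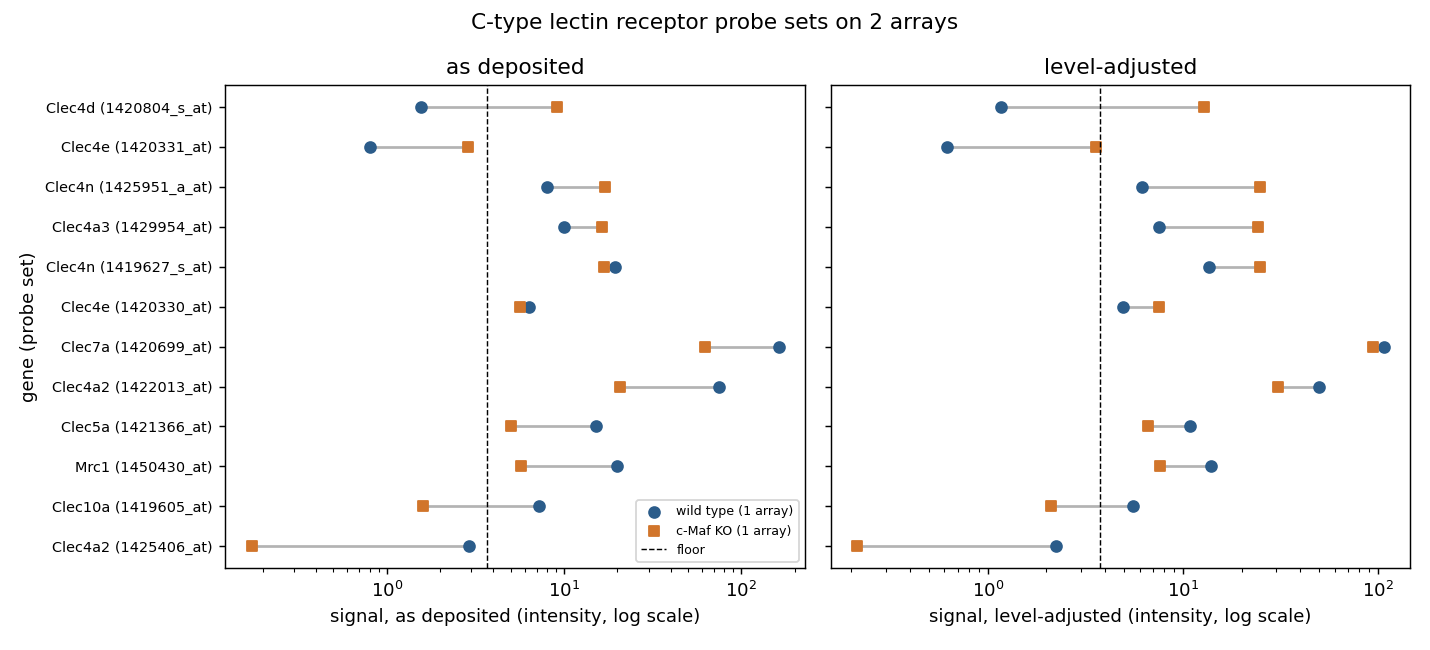
Signal of each of the 12 probe sets (rows) on the wild-type array (circles) and the c-Maf KO array (squares), as deposited on the left and level-adjusted on the right, on log axes of intensity; the dashed line is the floor. The 2 probe sets of Clec4n and those of Clec4d, Clec4a3 and Clec4e sit to the right in knockout after level adjustment, and those of Mrc1, Clec5a, Clec4a2, Clec10a and Clec7a to the left. The dimmer probe sets of Clec4e and Clec4a2 lie below the floor on both arrays.

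Among the endocytic receptors, Mrc1, the mannose receptor CD206 that takes up mannose-bearing glycoproteins, read 19.8 in wild type and 5.72 in knockout as deposited. Its level-adjusted signals were 13.9 and 7.61, a log2 ratio of -0.87, and 12.0% of measured genes had a lower ratio. The deposited ratio was -1.79. Mrc1 is also made by sinusoidal endothelial cells of the liver. Level-adjusted, their 7 measured markers ran from -0.30 (Clec4g, a bound) to 1.65 (Oit3), and the middle marker was Stab2 at 0.14. Cdh5 was at -0.15, Kdr at 0.11, Lyve1 at 0.50 and Tek at 0.57 (a bound). On the deposited scale the list median was -0.67. Clec10a, the galactose-type lectin MGL1, was dim, at 7.18 in wild type and 1.61 in knockout, where it was below the floor. It was thus at least 1.48-fold lower level-adjusted and at least 1.94-fold lower as deposited. Both endocytic receptors were lower in knockout on both scales. After level adjustment Mrc1 was within 2-fold, and the bound for Clec10a does not say on which side of 2-fold it lies.

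Clec7a, or Dectin-1, the receptor for fungal beta-glucan, had 162 in wild type and 62.1 in knockout. The deposited log2 ratio of -1.39 became -0.20 after level adjustment (108 and 94.0), which is smaller than the yardstick of 0.69. In the brightest of 5 signal bins, where Clec7a lies, the median level-adjusted ratio was -0.10, so Clec7a stood 0.10 below genes of like signal. Clec7a thus passed 2-fold as deposited and lay close to the middle of all genes after level adjustment.

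Of the receptors that use the Fc receptor gamma chain, Clec4d passed 2-fold after level adjustment, while Clec4e and the brightest Clec4n probe set did not. Clec4n is Dectin-2, a receptor for fungal mannans. Its brightest probe set had 19.3 in wild type and 16.8 in knockout, a log2 ratio of -0.20 as deposited and 0.86 level-adjusted. Its second probe set went from 8.05 to 17.0, which is 1.08 as deposited and 2.02 level-adjusted. The probe sets of Clec4n read almost the same knockout signal and differed in wild type, and their level-adjusted ratios lay 1.15 apart, beyond the SD of 0.98 for a difference between probe sets of one gene. After level adjustment Clec4n was at least 2-fold higher by the second probe set and by the mean of both (1.44), not by the brightest. As deposited the second probe set passed 2-fold and the brightest did not.

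Clec4d, encoding MCL, which partners Clec4e in sensing mycobacterial cord factor, was below the floor in wild type at 1.57 and at 9.09 in knockout. It was at least 3.43-fold higher level-adjusted and at least 2.46-fold higher as deposited. Both values are bounds set by the floor. Clec4e, encoding Mincle, the cord factor receptor, was near the floor on both arrays, at 6.31 in wild type and 5.66 in knockout, with a log2 ratio of -0.16 as deposited and 0.60 level-adjusted. A second Clec4e probe set was below the floor on both arrays, at 0.808 and 2.86. The sign for Clec4e and for the brightest Clec4n probe set therefore depended on the scaling, being negative as deposited and with hybridisation controls as reference and positive under the other 4 scalings, while Clec4d was positive under all 6.

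Clec5a, or MDL-1, a receptor of monocytes and neutrophils that couples to DAP12, had 15.2 in wild type and 5.04 in knockout. Its log2 ratio was -1.59 as deposited and -0.72 level-adjusted, and 15.9% of genes had a lower one. Among the activating receptors Clec5a was thus lower in knockout while Clec4d was higher. The difference between them has only a bound, of 2.50 or more on the level-adjusted log2 scale and 2.89 or more as deposited.

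The genes of the DCIR group went in opposite directions. Clec4a2, the inhibitory receptor DCIR, had 75.0 in wild type and 20.7 in knockout, with a log2 ratio of -1.86 as deposited and -0.70 level-adjusted. A dim second probe set of Clec4a2 was below the floor on both arrays, at 2.90 and 0.173. Clec4a3, or Dcir3, a close relative that lies in the same cluster, had 10.01 in wild type and 16.4 in knockout, with 0.71 as deposited and 1.68 level-adjusted. The latter is a 3.20-fold difference, and 1.19% of genes had a higher ratio. The difference between Clec4a3 and Clec4a2 was 2.38 level-adjusted and 2.57 as deposited, against the SD of 0.98 and 0.89 for a difference between probe sets of one gene. That SD holds no variation from embryo, sort or array, so it does not measure how a difference between genes would vary. Relatives in this family can share sequence, so how far each probe set reads its named gene alone is not known here, and 1 further probe set annotated to Clec4a2 together with its neighbour Clec4b1 was left out.

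**Figure D2:**
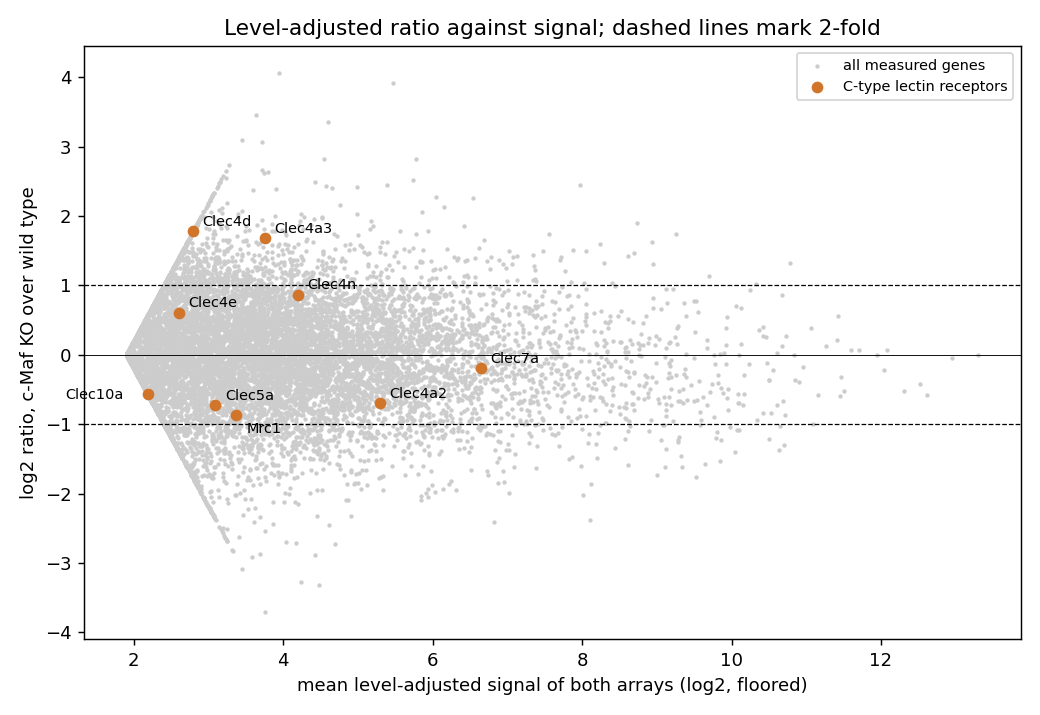
Level-adjusted log2 ratio of c-Maf KO over wild type (vertical) against the mean level-adjusted log2 signal of both arrays, after flooring (horizontal), for all 13290 measured genes (grey) and the 9 measured receptors (orange); dashed lines mark 2-fold. Clec4d and Clec4a3 lie above the upper line at 1.78 and 1.68 and Mrc1, at -0.87, just above the lower line; Clec4d and Clec10a lie on the oblique edges where 1 array is at the floor.

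Read along chromosome 6, the Dectin-2 cluster had level-adjusted ratios of 1.68 for Clec4a3, -0.70 for Clec4a2, 0.86 for Clec4n, 1.78 for Clec4d (a bound) and 0.60 for Clec4e. Clec4a2 was the only one of these 5 below 0 on the level-adjusted scale, while as deposited Clec4a2 (-1.86), Clec4n (-0.20) and Clec4e (-0.16) were below 0. The Clec4n values here are those of its brightest probe set. The second Clec4n probe set was above 0 on both scales, at 1.08 as deposited and 2.02 level-adjusted. Clec4b1, which lies between Clec4a3 and Clec4a2, was below the floor on both arrays at 1.01 and 0.746. Outside the cluster, level-adjusted ratios were -0.20 for Clec7a, -0.72 for Clec5a, -0.87 for Mrc1 and -0.57 for Clec10a (a bound). The median over all genes was 0.01. These genes were also below 0 as deposited, where the median gene was at -0.79, so a negative sign was common there. No test of position is possible with 9 genes and 1 array per genotype.

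**Figure D3:**
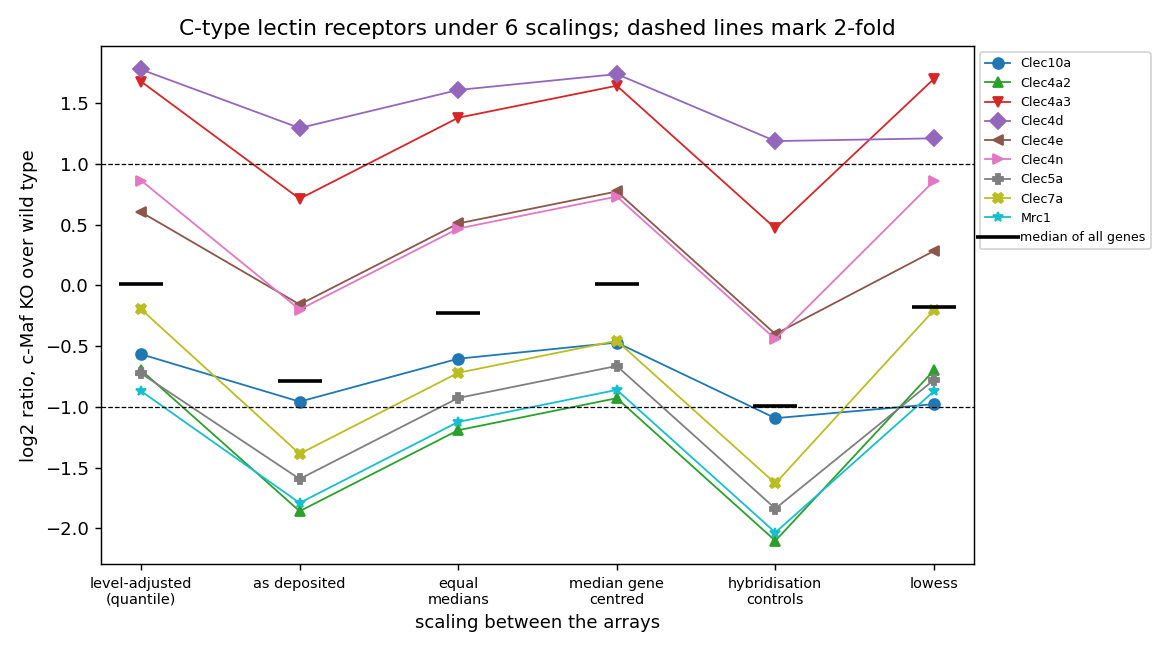
Log2 ratio of c-Maf KO over wild type (vertical) for each of the 9 measured receptors under 6 ways of scaling the arrays (horizontal); black bars are the median of all measured genes and dashed lines mark 2-fold. Each receptor is shown by its brightest probe set. Clec4d and Clec4a3 stay above 0 and Mrc1, Clec5a, Clec4a2, Clec7a and Clec10a below 0 under all 6, whereas Clec4n and Clec4e cross 0.

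The adaptors of these receptors were bright. Fcer1g, the gamma chain used by Clec4n, Clec4d and Clec4e, had 90.3 in wild type and 87.7 in knockout, at -0.04 as deposited and 1.12 level-adjusted. Tyrobp, encoding DAP12, had 284 and 252, at -0.17 and 0.94. Hcst, encoding DAP10, went from 24.7 to 1.39, below the floor, and was at least 4.56-fold lower level-adjusted. The adaptors of Clec5a thus lay on opposite sides of 0 after level adjustment, with Hcst lower on both scales and Tyrobp changing sign between them.

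Downstream, Syk, the kinase recruited by the activating receptors, had 80.1 and 27.4 (level-adjusted ratio -0.38, and -1.55 as deposited). A second Syk probe set at 12.9 and 8.57 gave 0.35 level-adjusted. Dimmer Syk probe sets, at 2.73 and 5.71 and at 6.26 and 2.65, gave bounds of 1.02 and -0.39. Ptpn6, the phosphatase SHP-1 recruited by inhibitory receptors, had 127 and 42.2 (-0.42, and -1.60 as deposited). The second Ptpn6 probe set, at 59.0 and 52.0, gave 0.98 level-adjusted. Inpp5d, the lipid phosphatase SHIP-1, had 47.7 and 21.9 (0.03, and -1.12 as deposited), and its second probe set, at 9.81 and 9.02, gave 0.79. After level adjustment neither Syk nor Ptpn6 had 1 direction over its probe sets, while as deposited both Ptpn6 probe sets were lower in knockout. Card9 has no probe set of its own in the annotation used here. The exchange factor gene Vav1 was at -0.69 (-1.81 as deposited) by 1 probe set and -1.47 level-adjusted by another of like brightness (45.9 and 7.94). The NF-kB subunit gene Rela was at 0.66 (-0.50 as deposited).

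Of the 22 listed genes of C-type lectin receptor signalling, 18 were measured. After level adjustment 4 of these were lower by 2-fold or more, 1 was higher and 13 lay between, beside 9.05% lower and 8.34% higher over all genes. The lower ones besides Hcst were Nfatc2, Src and Traf6, named after their values were seen, and the higher one was Fcer1g. Hcst, Nfatc2 and Src were below the floor in knockout, so their ratios are bounds. The list median was -0.24, beside 0.01 over all genes. As deposited 12 were at least 2-fold lower and 0 higher, against 39.8% and 1.19% of all genes.

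Other C-type lectin and lectin-like receptors were mostly dim. Of 41 listed, 36 had a probe set of their own, 11 of which were below the level-adjusted floor on both arrays, among them Cd209a and Cd207. Of the 25 measured, 1 was lower by 2-fold or more and 2 were higher, with a median of -0.04. The shares over all genes were 9.05% lower and 8.34% higher. Named after their values were seen, the lower one was Cd69, an early activation antigen (16.3 to 1.01, below the floor in knockout). The higher ones were Cd72 (5.89 to 8.38) and Klra2 (7.19 to 8.22), both dim and short of 2-fold as deposited (0.51 and 0.19). As deposited 28 were measured, of which 4 were at least 2-fold lower and 0 higher, against 39.8% and 1.19% of all genes. The deposited list median was -0.52, beside -0.79 over all genes. Clec1b, the platelet and myeloid receptor CLEC-2, had 20.2 and 15.6 (0.69 level-adjusted, -0.38 as deposited), and Cd93 had 24.5 and 12.8 (0.12 and -0.94), with a second probe set at -0.25 level-adjusted.

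**Figure D4:**
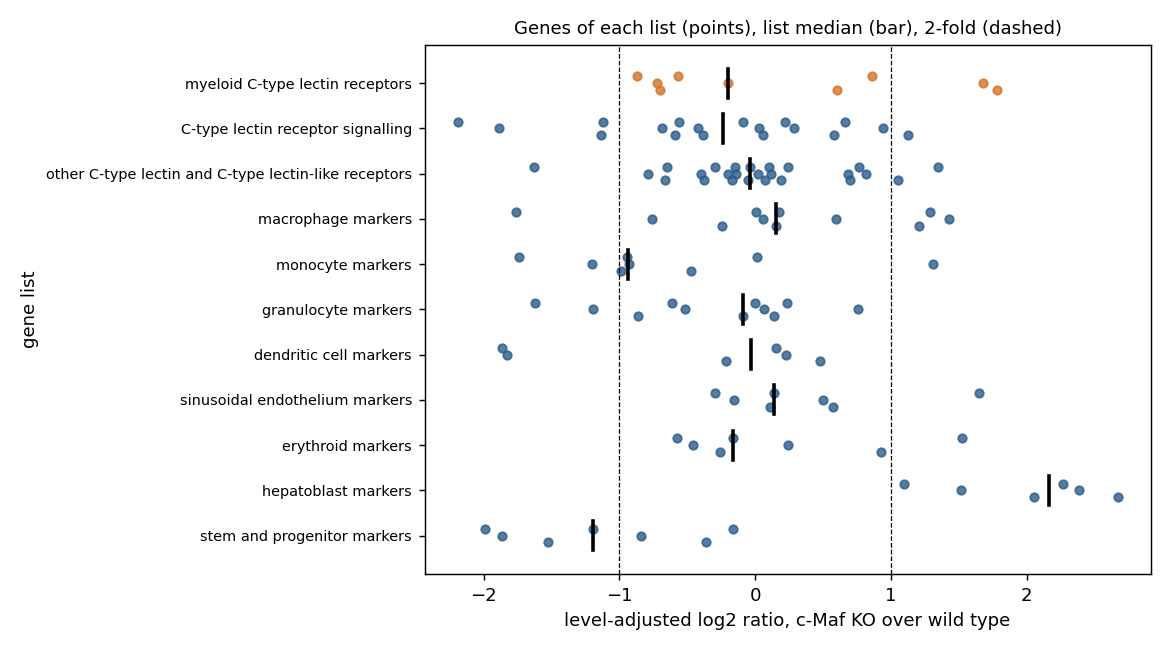
Level-adjusted log2 ratio of c-Maf KO over wild type (horizontal) for the measured genes of each list (rows; receptors in orange, other lists in blue), with the list median as a black bar and dashed lines at 2-fold. The receptors spread from -0.87 to 1.78, monocyte markers centre on -0.93 and hepatoblast markers on 2.16.

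Markers of the sorted cells and of other cells that carry these receptors were read on the same arrays. Over all genes, 9.05% were at least 2-fold lower and 8.34% higher level-adjusted, against 39.8% and 1.19% as deposited. Of 8 measured monocyte markers 2 were at least 2-fold lower and 1 higher, the median being -0.93 (-1.74 as deposited), and their level-adjusted signals summed to 2034 in wild type and 1485 in knockout. Of 11 granulocyte markers 2 were lower and 0 higher (median -0.09 level-adjusted, -1.28 as deposited, with 7 lower as deposited; sums 12414 and 10786). Of 6 measured dendritic cell markers 2 were lower and 0 higher (median -0.03 level-adjusted, -0.66 as deposited; sums 68.6 and 46.2), and Xcr1, Siglech, Ccr7 and Cd209a were below the level-adjusted floor on both arrays. Of 7 sinusoidal endothelial markers 0 were lower and 1 higher (median 0.14 level-adjusted, -0.67 as deposited; sums 51.4 and 70.4), with Pecam1 below the floor on both. Of 11 macrophage markers 1 was lower and 3 higher (median 0.16 level-adjusted, -0.57 as deposited; sums 1003 and 1040), with Cd163 below the floor on both. As deposited, 7 of 8 monocyte and 4 of 11 macrophage markers were at least 2-fold lower. The counts were 3 of 8 for dendritic cell and 0 of 7 for sinusoidal endothelial markers. In each of these lists 0 were at least 2-fold higher as deposited.

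Hepatoblast, progenitor and erythroid markers were read in the same way. The shares of all genes beside them are 9.05% lower and 8.34% higher level-adjusted, and 39.8% and 1.19% as deposited. All 6 measured hepatoblast markers were at least 2-fold higher level-adjusted (median 2.16; sums 225 and 796), against 3 of 6 as deposited (median 0.99), with Fgb below the floor on both arrays. Of 7 stem and progenitor markers 4 were lower and 0 higher (median -1.20; sums 378 and 124), against 7 of 7 lower as deposited (median -2.19). Of 7 erythroid markers 0 were lower and 1 higher (median -0.17 level-adjusted, -0.92 as deposited, with 3 lower as deposited; sums 8588 and 6082). The part of these other cells in the receptor signals was not tested.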

How the data were processed

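The deposited intensity values of 1 wild-type and 1 c-Maf KO Affymetrix array were used, linear signals from 0.0203 to 10606; the authors' summarisation and scaling are not given in the sources used here, and detection calls were not used. Probe sets were named from the platform annotation (34945 with 1 symbol, 932 with several, 9160 with none, 64 controls), with symbols updated to RefSeq GRCm38.p6 by Entrez identifier. In Python 3.11.15 (numpy 2.4.6, pandas 2.3.3, statsmodels 0.14.6), signals were quantile-normalized on the log2 scale and raised to a floor at their 50th percentile, and ratios were taken as knockout over wild type in log2. The probe set of a gene with the highest mean of both deposited signals stood for it, and measured genes reached the floor on at least 1 array. Counts use 2-fold. No test was possible; the number of arrays limits the precision. The functions were tested on simulated data. Every member was named, with up to 5 genes per pathway list of the largest absolute ratio among those reaching 4 times the floor on 1 array, chosen adaptors, and Maf. The members, lists and main scaling were chosen with earlier results of these data known. Alternatives were 5 other scalings (values as deposited, equal medians, centring on the median gene, hybridisation controls, lowess), 2 other floors, the floor as pseudocount, 3 probe set choices, a brightness limit, thresholds of 1.5- and 3-fold, and counting probe sets instead.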

Additional observations from a re-analysis of the deposited data

How the results depend on the processing

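Level-adjusted, 0 members were at least 2-fold lower, 2 higher, and the median was -0.20. As deposited 4 were lower, 1 higher and the median was -0.96; with hybridisation controls as reference 5 were lower (49.6% of all genes), 1 higher (0.764%) and the median was -1.09; with equal medians 2 were lower. A floor at the 25th percentile gave 1 lower, Clec10a (-1.40; 17.7% of all genes). Probe sets without a suffix left 7 members, with 1 higher, and requiring 4 times the floor on the brighter array left 4, with 1 higher. Both alternatives dropped Clec4d, whose only probe set is dim and has a suffix, so Clec4a3 was the higher one left. A 1.5-fold threshold gave 3 lower (21.0% of all genes) and 4 higher (21.2%). The other alternatives kept the counts within 1.5 times, and the median within the yardstick, though it was above 0 with the floor at the 65th percentile (0.05) and with 4 times the floor required (0.33). For single members, 83 of 100 values under alternatives lay within 0.69 of the level-adjusted ratio, and 0 reversed a ratio past 2-fold. Many of the 100 could not differ, because the alternative did not touch the member concerned, so this share does not measure stability. The 0.69 also comes from brighter probe sets than those of Mrc1, Clec5a, Clec10a, Clec4d and Clec4e. As deposited and with hybridisation controls, every measured member except Clec10a and Clec4d moved by more than 0.69. Clec4d ran from 1.07 with the floor at the 65th percentile to 3.46 at the 25th. Clec4a3 was short of 2-fold as deposited (0.71) and with hybridisation controls (0.47). The floor limits dim members: Clec4d, Clec10a and Clec4e were close to it or below it on at least 1 array. No paired analysis was possible because each genotype has 1 array.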
